A study of Mus musculus with 9 samples.

Results

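The Schlafen family was followed in mouse CD4 T cells through 6 genes chosen by name, Slfn1, Slfn2, Slfn3, Slfn5, Slfn8 and Slfn9, out of 23171 gene rows in the deposited table. All 6 passed the filter on low values, as did 10825 rows in all. CD4 T cells had been taken from spleen and lymph nodes of the C57BL6 strain, and no further allele is named in the labels. Per the labels, antibodies that deliver an antigen to dendritic cells had been given 5 days ahead of the sort, and the sorted T cells met antigen-presenting cells again for 12 h in culture and were sorted once more. The 3 groups, Hopx high, Hopx low and naive, have 3 libraries each and share this treatment label and strain, and the source of the naive cells is not described further. How the level of Hopx was read at the sort, and whether each replicate was an animal of its own, are not described either, and a p-value here reflects the spread between libraries, which may be technical. The comparisons address how RNA differs between antigen-specific T cells with high and low Hopx, a small homeodomain protein, and naive cells.

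Schlafen proteins take their name from the German word for sleeping, because the first members were found as genes that change as thymocytes mature and that slow the growth of T cells. They share a core domain that in several members binds or cuts transfer RNA, and many are induced by type I interferon. Short members such as Slfn1 and Slfn2 have little beyond the core, intermediate members such as Slfn3 and Slfn4 add a linker region, and long members such as Slfn5, Slfn8 and Slfn9 carry a helicase-like region. In mice, loss of Slfn2 function makes T cells fail to hold a quiescent state and die after activation.

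The 6 genes lie together on chromosome 11 of GRCm38, in the GENCODE vM21 annotation. In order along the chromosome they are Slfn5 (82951349 to 82964840, plus strand), Slfn9 (82978390 to 82991830, minus strand), Slfn8 (83002158 to 83020810, minus strand), Slfn2 (83065112 to 83070678, plus strand), Slfn1 (83116849 to 83122670, plus strand) and Slfn3 (83191330 to 83215154, plus strand). Their coding sequences fall in the order of the size classes, with 337 codons in Slfn1, 378 in Slfn2, 640 in Slfn3, 884 in Slfn5 and 910 each in Slfn8 and Slfn9. The coding sequences of Slfn8 and Slfn9 were identical at 92.7% of aligned bases, against 71.3% for Slfn1 and Slfn2. Windows of 100 bases that another annotated gene holds exactly made up 3.71% of the Slfn8 transcript and 3.90% of the Slfn9 transcript, shared among Slfn8, Slfn9 and the pseudogene Slfn10-ps, and 4.93% of Slfn3, shared with the pseudogene Gm11427. They made up at most 0.255% of Slfn1, Slfn2 and Slfn5. How reads of shared sequence were assigned was not given in the sources used here. By this measure of shared sequence the levels of Slfn3, Slfn8 and Slfn9 are less certain than those of the other 3. Slfn2 also overlaps the antisense gene Gm20234, whose exons share 0 of the 1664 exon bases of Slfn2, and the use of strand is not known here, so reads of that gene inside Slfn2 could not be separated if whole gene spans were counted.

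The promoters are shown because they divide the genes by shared letters, Slfn1, Slfn2 and Slfn3 on one side and Slfn5, Slfn8 and Slfn9 on the other. Each line gives the 180 bases before the RefSeq start (GRCm38.p6), 5′ to 3′ on the gene's strand, at chr11:83116640-83116819 for Slfn1, chr11:83064932-83065111 for Slfn2, chr11:83191150-83191329 for Slfn3, chr11:82951922-82952101 for Slfn5, chr11:83020811-83020990 for Slfn8 and chr11:82991831-82992010 for Slfn9. Capitals mark ACTTCCTGG in the first 3 genes and, in the other 3, the interferon-stimulated response element (ISRE), searched on both strands as GAAA and GAAA with any pair of bases between them.
Slfn1: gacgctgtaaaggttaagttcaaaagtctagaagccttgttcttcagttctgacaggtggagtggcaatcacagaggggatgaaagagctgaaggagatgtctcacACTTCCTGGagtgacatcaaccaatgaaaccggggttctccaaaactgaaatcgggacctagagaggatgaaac
Slfn2: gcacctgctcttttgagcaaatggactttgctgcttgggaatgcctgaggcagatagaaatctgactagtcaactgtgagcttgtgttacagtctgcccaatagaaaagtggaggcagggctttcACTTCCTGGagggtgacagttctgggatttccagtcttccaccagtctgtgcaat
Slfn3: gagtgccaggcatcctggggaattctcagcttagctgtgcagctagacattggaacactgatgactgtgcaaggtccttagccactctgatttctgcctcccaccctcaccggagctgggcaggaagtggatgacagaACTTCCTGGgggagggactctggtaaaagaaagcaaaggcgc
Slfn5: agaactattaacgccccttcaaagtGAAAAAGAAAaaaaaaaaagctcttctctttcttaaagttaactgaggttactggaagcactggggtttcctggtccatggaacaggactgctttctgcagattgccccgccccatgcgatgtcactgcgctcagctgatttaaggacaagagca
Slfn8: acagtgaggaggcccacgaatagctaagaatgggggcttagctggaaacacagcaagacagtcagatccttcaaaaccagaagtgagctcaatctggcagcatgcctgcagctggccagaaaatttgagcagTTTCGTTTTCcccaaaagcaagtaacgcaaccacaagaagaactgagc
Slfn9: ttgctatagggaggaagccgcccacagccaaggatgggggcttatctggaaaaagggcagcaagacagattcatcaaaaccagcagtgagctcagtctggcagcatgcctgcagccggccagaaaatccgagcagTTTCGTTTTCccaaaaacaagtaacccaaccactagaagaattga

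The Slfn1 start used lies 29 bases upstream of the GENCODE transcript start, while the starts of the other 5 fall on one, and for Slfn8 the more upstream of 2 RefSeq starts was used. The ISRE began 155 bases before the start in Slfn5, where it runs into a stretch of A, 48 bases before it in Slfn8 and 45 bases before it in Slfn9. Windows of 180 bases before the start held it in 2.34% of 27025 RefSeq genes. The letters ACTTCCTGG, which contain the core of ETS family sites and were picked after these promoters had been read, began 74, 55 and 42 bases before the start in Slfn1, Slfn2 and Slfn3, and 0.648% of the genes held them on either strand. The interferon-gamma element TTCNNNGAA, held by 5.68% of genes, and the AP-1 site TGANTCA, held by 5.79%, had no match in the 6 windows. The Slfn8 and Slfn9 promoters were identical at 87.2% of aligned bases, 150 of 172, as near copies of each other. A match is a description of letters and not of binding.

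Summed coverage per library was 203 to 800 megabases in Hopx high, 330 to 442 in Hopx low and 63.3 to 289 in naive. Levels are given as bases per megabase of that coverage (bases per Mb). A read, taken here as 100 bases, was worth 0.125 to 1.58 of these units. The row Gas5 alone held 39.99%, 29.12% and 5.68% of the coverage in naive replicates 1, 2 and 3. Its share was 1.16% to 21.27% in Hopx high and 4.09% to 18.53% in Hopx low. A larger share of Gas5 lowers the bases per Mb of every other gene. Naive replicates 1 and 2, the shallowest libraries, carry the labels naive1A and naive1B. They differed by about sampling noise and were counted as 1 sample, so means use n = 3, 3 and 2. In bases per Mb, the Hopx row had 8.95, 7.79 and 4.89 in Hopx high, 3.32, 6.90 and 3.29 in Hopx low and 0, 0 and 1.64 in naive, so the Hopx groups overlapped. Cd3e, a chain of the T cell receptor complex, was at 147 to 339 bases per Mb in every library, and Cd4 at 101 to 501. Xist had at most 0.400 bases per Mb in any Hopx library and 76.1 to 263 in naive, and the Y-linked Ddx3y ranged from 30.7 to 85.5 in Hopx libraries, with no naive library over 0.300. Every comparison with naive is thus also one between libraries that differ in sex-linked rows. In these bulk samples fewer cells with a transcript and less of it per cell cannot be told apart.

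Slfn2 and Slfn1, the short members, held most of the family's coverage in all 9 libraries. Per kb of exon, Slfn2 had a level of 339 ± 75.6 in Hopx high (bases per Mb per kb; SD, n = 3), 518 ± 321 in Hopx low (n = 3) and 300.1 ± 199 in naive (n = 2). Slfn1 came next at 72.1 ± 22.0, 128 ± 35.8 and 100.5 ± 75.3 bases per Mb per kb in the same groups, and the Slfn2 level was 2.35 to 5.42 times the Slfn1 level within a library. The long members Slfn8, at 14.4 ± 3.47 in Hopx high, 19.2 ± 8.99 in Hopx low and 16.3 ± 16.0 in naive, and Slfn5, at 6.86 ± 2.61, 10.7 ± 0.858 and 9.11 ± 10.8, followed. Slfn3, at 2.65 ± 1.06, 3.85 ± 3.24 and 2.79 ± 2.02, and Slfn9, at 0.905 ± 0.153, 0.653 ± 0.301 and 0.146 ± 0.206, were lowest.

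The order Slfn2, Slfn1, Slfn8, Slfn5, Slfn3, Slfn9 held in 8 of 9 libraries, and in naive replicate 2 Slfn3 stood above Slfn5. In Hopx high and in Hopx low the ranges of neighbours in this order did not overlap. In naive they overlapped between Slfn2 and Slfn1, between Slfn8 and Slfn5 and between Slfn5 and Slfn3. The place of Slfn3 depends on the length used: with the longest coding transcript, 1.966 kb in place of 3.411 kb of merged exons, Slfn3 stood above Slfn5 in Hopx low replicate 3 and in naive replicates 1 and 2.

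**Figure D1:**
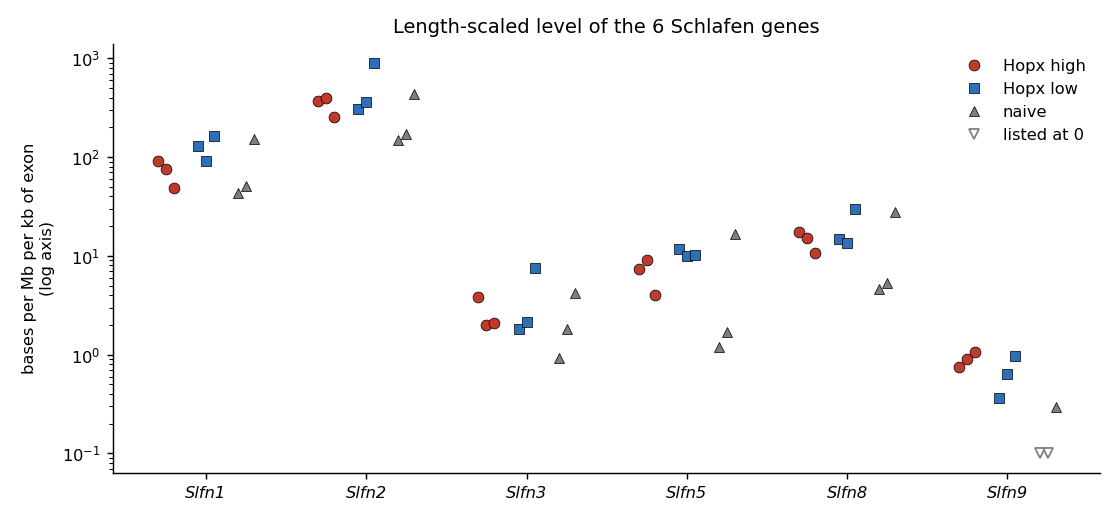
Level of each Schlafen gene per kb of exon (bases per Mb per kb, log axis) in every library, 3 symbols a group, with Hopx high left, Hopx low in the middle and naive right. Slfn2 and Slfn1 lie highest in every group, and the open triangles mark the 2 naive libraries in which Slfn9 was listed at 0.

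Among the short members, Slfn1, which slows the growth of thymocytes when overexpressed, had 172, 141 and 90.7 bases per Mb in Hopx high replicates 1, 2 and 3, against 241, 172 and 305 in Hopx low and 80.5, 95.5 and 287 in naive. Each Hopx high library lay below each Hopx low library, by the narrowest of margins between Hopx high replicate 1 and Hopx low replicate 2, and the naive libraries spread across both groups. The log2 difference was -0.84 ± 0.48 (SE) for Hopx high against Hopx low (95% interval -1.84 to 0.17, limma adjusted p = 0.992, unadjusted p = 0.0967), -0.29 for Hopx high against naive (-1.41 to 0.83, limma adjusted p = 0.880) and 0.55 for Hopx low against naive (-0.57 to 1.67, limma adjusted p = 0.814). Slfn1 thus had the smallest unadjusted p of the 6 genes between the Hopx groups and did not pass.

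Slfn2, whose product protects transfer RNA from cleavage in activated mouse T cells, had 614, 659 and 422 bases per Mb in Hopx high, against 506, 605 and 1477 in Hopx low and 245, 285 and 733 in naive. The Hopx groups overlapped, and Hopx low replicate 3 stood far above all other libraries. Its log2 difference was -0.47 ± 0.50 (SE) between Hopx high and Hopx low (95% interval -1.51 to 0.57, limma adjusted p = 0.992), 0.33 between Hopx high and naive (-0.83 to 1.49, limma adjusted p = 0.866) and 0.80 between Hopx low and naive (-0.37 to 1.96, limma adjusted p = 0.736). None of the 3 passed.

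The intermediate member Slfn3, studied in the rat for its part in the maturation of gut epithelium, had 13.2, 6.79 and 7.07 bases per Mb in Hopx high, against 6.17, 7.32 and 25.9 in Hopx low and 3.14, 6.15 and 14.4 in naive. One library lay well above the other two in each group, and all 3 groups overlapped. A total of 3 assumed reads is worth 4.74 bases per Mb in naive replicate 1, above the Slfn3 value there. The log2 differences were -0.28 ± 0.65 (SE) for Hopx high against Hopx low (95% interval -1.64 to 1.08), 0.046 for Hopx high against naive (-1.48 to 1.57) and 0.33 for Hopx low against naive (-1.20 to 1.85), with limma adjusted p of 0.992, 0.987 and 0.936. Both differences of Slfn3 from naive turned negative, to -0.080 and -0.029, with each library scaled by its median gene.

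Of the long members, Slfn5, whose human counterpart is an interferon-induced repressor of transcription, had 46.7, 58.0 and 25.5 bases per Mb in Hopx high, against 73.6, 63.4 and 65.2 in Hopx low and 7.50, 10.8 and 106 in naive. Every Hopx high library lay below every Hopx low library, and the naive libraries held both the lowest values and the highest. The log2 difference was -0.70 ± 0.65 (SE) for Hopx high against Hopx low (95% interval -2.06 to 0.66, limma adjusted p = 0.992), 0.35 for Hopx high against naive (-1.17 to 1.87, limma adjusted p = 0.897) and 1.05 for Hopx low against naive (-0.47 to 2.57, limma adjusted p = 0.734). Slfn5 shares 559 of its 6326 exon bases with an antisense gene, Slfn5os, and the use of strand is unknown here. The row 1700003F17Rik of that gene was at 0 in 8 of 9 libraries and at 1.33 bases per Mb in Hopx low replicate 2. How reads of the shared bases were assigned is not known, and their part in the Slfn5 values was not tested.

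Slfn8, which reduces T cell numbers in mice when overexpressed in the T lineage, had 71.1, 62.3 and 43.3 bases per Mb in Hopx high, against 60.0, 54.9 and 121 in Hopx low and 18.8, 22.0 and 113 in naive. The Hopx groups overlapped, with Hopx low replicate 3 again highest. The log2 differences were -0.35 ± 0.56 (SE) for Hopx high against Hopx low (95% interval -1.53 to 0.83), 0.25 for Hopx high against naive (-1.07 to 1.57) and 0.59 for Hopx low against naive (-0.73 to 1.91), with limma adjusted p of 0.992, 0.921 and 0.830.

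Slfn9, the near copy of Slfn8, was the rarest of the 6, with 4.47, 5.44 and 6.29 bases per Mb in Hopx high, against 2.15, 3.80 and 5.74 in Hopx low and 0, 0 and 1.74 in naive. The Hopx groups overlapped, and each Hopx library lay above each naive library. A total of 3 assumed reads is worth 4.74 and 3.47 bases per Mb in naive replicates 1 and 2. Those libraries could therefore have missed levels like the lower ones of the Hopx groups. Naive replicate 3, with a floor of 1.04, held a value below every Hopx library. The log2 difference from naive was 1.94 ± 0.65 (SE) for Hopx high (95% interval 0.58 to 3.30, unadjusted p = 0.00765, limma adjusted p = 0.116) and 1.50 ± 0.65 for Hopx low (0.13 to 2.86, unadjusted p = 0.0330, limma adjusted p = 0.508). With a pseudocount of 0.1 in place of 1 base per Mb the same differences were 3.67 and 3.11, since the 2 zeros set their size. Between Hopx high and Hopx low the log2 difference was 0.44 ± 0.58 (-0.77 to 1.66, limma adjusted p = 0.992). In the authors' deposited table the ratio of means for Slfn9 was 9.15 for Hopx high over naive (unadjusted p = 0.00353) and 6.60 for Hopx low over naive (unadjusted p = 0.0494), with the 3 naive libraries taken as separate samples.

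**Figure D2:**
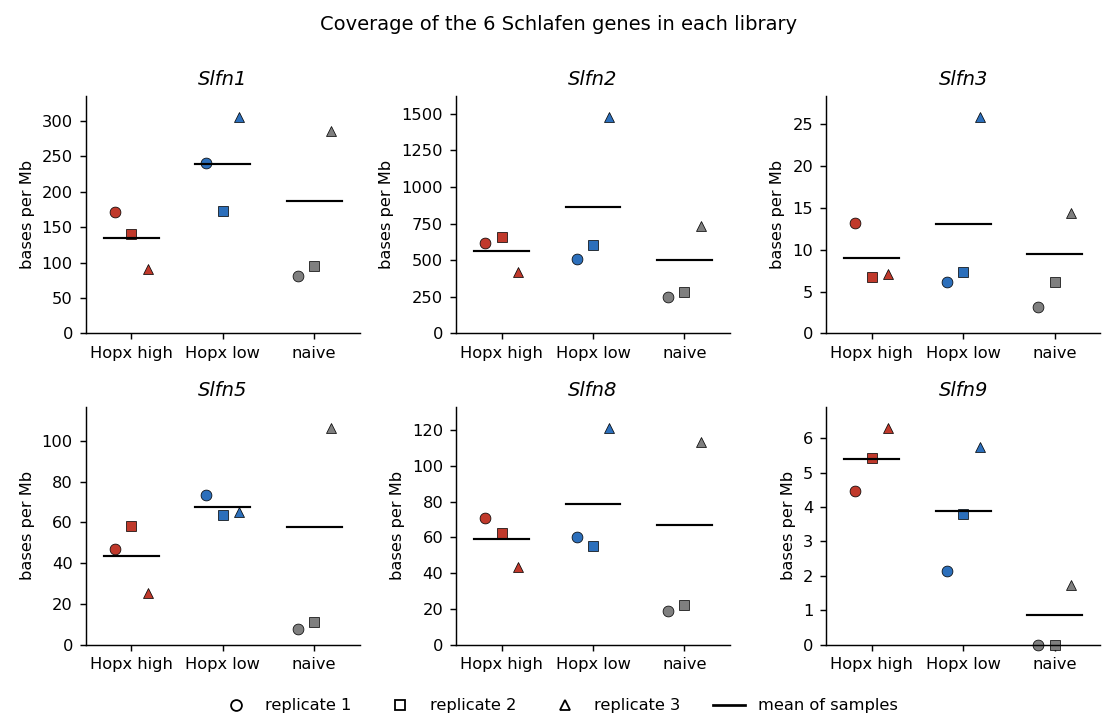
Coverage of the 6 Schlafen genes (bases per Mb, linear axes that start at 0) in each library, with Hopx high left, Hopx low in the middle and naive right; symbols give the replicate and lines the mean of samples, with naive replicates 1 and 2 averaged first. Hopx low replicate 3 is the highest point for Slfn1, Slfn2, Slfn3 and Slfn8, and naive replicate 3 lies above naive replicates 1 and 2 for all 6 genes.

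Set by comparison, 0 of the 6 genes passed an adjusted p of 0.05 between Hopx high and Hopx low, where the limma fit called 0% of the 10825 genes tested, and 0 of the 6 had an unadjusted p under 0.05, against 4.5% of all genes. Without a variance trend limma also called 0 genes. Both genes whose groups did not overlap, Slfn1 and Slfn5, were lower in Hopx high, as were 10.1% of all genes. Of the 6 differences 5 were negative, with a median of -0.41, but 70.0% of all genes were negative too, with a median of -0.25. After each library was scaled by its median gene, which moved the median of all genes to -0.013, Slfn1 differed by -0.58, Slfn5 by -0.45, Slfn2 by -0.21, Slfn8 by -0.096, Slfn3 by -0.051 and Slfn9 by 0.66, with limma adjusted p of 0.890 for Slfn1 and 0.9996 for the other 5. The Hopx libraries fitted without naive called 0.636% of 10846 genes and none of the 6.

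Against naive, 0 of the 6 genes passed in Hopx high, where 3.8% of all genes did, and 0 passed in Hopx low, where 0.305% did. One of the 6, Slfn9, had an unadjusted p under 0.05 in each comparison, against 15.5% of all genes for Hopx high and 8.52% for Hopx low. Slfn9 was also the 1 gene of the 6 whose groups did not overlap, being higher in both Hopx groups, as were 14.2% of all genes in Hopx high and 17.1% in Hopx low. The median of the 6 differences was 0.29 for Hopx high and 0.70 for Hopx low, against 0.15 and 0.38 over all genes. These comparisons share the naive samples.

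**Figure D3:**
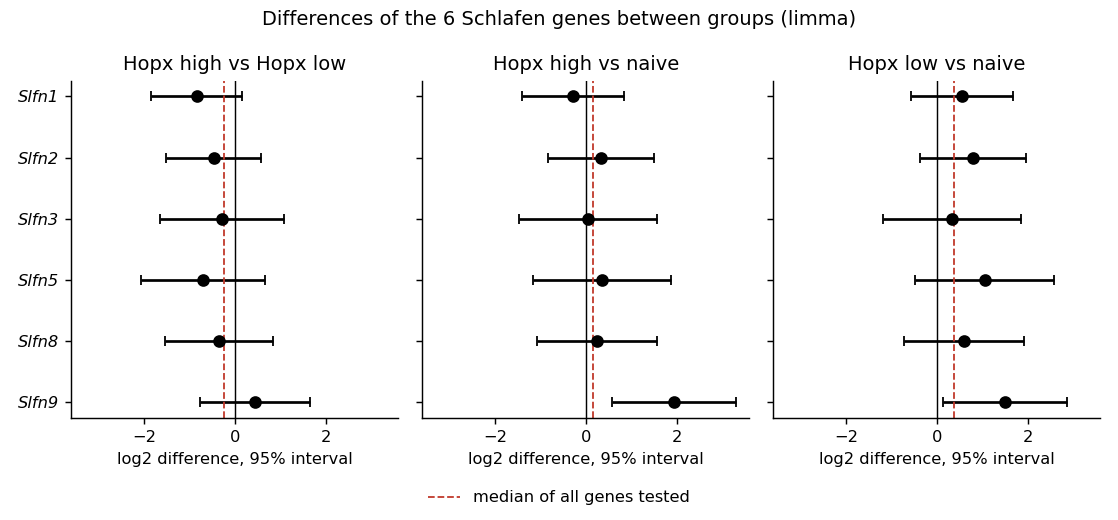
Log2 difference of each Schlafen gene with its 95% interval from the limma fit, for Hopx high against Hopx low, Hopx high against naive and Hopx low against naive; the dashed line is the median of all genes tested. The intervals include 0 for every gene but Slfn9 in the comparisons with naive, and no gene passed after adjustment.

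Single libraries moved these values. In bases per Mb, the 6 genes summed to 921, 932 and 595 in Hopx high, 888, 906 and 2000 in Hopx low and 355, 420 and 1256 in naive. Hopx high replicate 3 was the lowest Hopx library and Hopx low replicate 3 the highest. Over 9025 genes, deviations of same-numbered Hopx libraries from their group means correlated at r = 0.415, 0.369 and 0.158 in replicates 1, 2 and 3. For the sum of the 6 genes replicate 3 deviated in opposite directions. Pairing by number is thus not shown, and the same-numbered libraries are set side by side only as a description. Slfn2 differed by 0.28, 0.12 and -1.81 on the log2 scale in pairs 1, 2 and 3, and Slfn8 by 0.24, 0.18 and -1.46. Only in pair 3 were both lower in Hopx high. Slfn1 was lower in Hopx high in all 3 pairs, by -0.48, -0.29 and -1.74, and so was Slfn5, by -0.64, -0.13 and -1.32. Slfn9 was higher in Hopx high in all 3 pairs, by 0.80, 0.42 and 0.11, and Slfn3 differed by 0.99, -0.10 and -1.73.

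Without Hopx low replicate 3 the difference between Hopx high and Hopx low changed sign for Slfn2 (0.0042), Slfn8 (0.0066) and Slfn3 (0.32), while it was -0.64 for Slfn1, -0.72 for Slfn5 and 0.71 for Slfn9, each with a limma adjusted p of 0.9999. In naive, replicate 3 stood at 11.6 times the mean of replicates 1 and 2 for Slfn5, 5.55 times for Slfn8, 3.26 times for Slfn1, 3.10 times for Slfn3 and 2.77 times for Slfn2. The median over 8702 genes was 1.86 times, with quartiles of 0.993 and 4.30. Slfn5 and Slfn8 thus lay above the upper quartile of all genes and the others within the quartiles. The larger share of Gas5 in naive replicates 1 and 2 enters all these ratios, and they were not recomputed without Gas5. Slfn5 was at 106 bases per Mb in naive replicate 3, more than in any Hopx library.

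The comparisons with naive therefore depended on which naive libraries were used. Without naive replicate 3, which leaves 1 naive sample whose spread is assumed to be that of the other groups, limma called Slfn5 higher in Hopx high (log2 difference 2.05, adjusted p = 0.00731) and in Hopx low (2.75, adjusted p = 0.000632), Slfn9 higher in both (2.67, adjusted p = 0.00409, and 2.22, adjusted p = 0.0153) and Slfn8 higher in Hopx low (1.80, adjusted p = 0.0179). The same fit called 2706 genes for Hopx high, 25.1% of those tested, and 2773 for Hopx low, 25.7%. With naive replicate 3 as the only naive sample, an alternative added after the data were seen, Slfn5 differed from naive by -1.35 in Hopx high and -0.65 in Hopx low, and Slfn8 by -0.96 and -0.61, and none of the 6 passed. Slfn9 was positive either way.

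Shares of the family's coverage within a library, not scaled for gene length, do not depend on how the library is scaled. Slfn2 held 56.9% to 73.8% of the 6 genes' coverage and Slfn1 15.1% to 27.1%. Slfn8 held 5.24% to 9.02%, Slfn5 2.11% to 8.45%, Slfn3 0.695% to 1.47% and Slfn9 at most 1.06%. The ratio of Slfn8 to Slfn5 was 1.52, 1.07 and 1.70 in Hopx high, 0.816, 0.866 and 1.86 in Hopx low and 2.51, 2.03 and 1.07 in naive. It lay under 1 in 2 of 3 Hopx low libraries and in no other library. The coverage of Slfn1 was 2.43 to 4.68 times that of Slfn5 in the Hopx libraries and 10.7, 8.83 and 2.70 times in naive. Of 6 ratios between the genes tested for Hopx high against Hopx low by a two-sided exact permutation test, with a smallest possible p of 0.1, none reached it (p = 0.2 to 0.8, adjusted p = 0.8 for each).

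**Figure D4:**
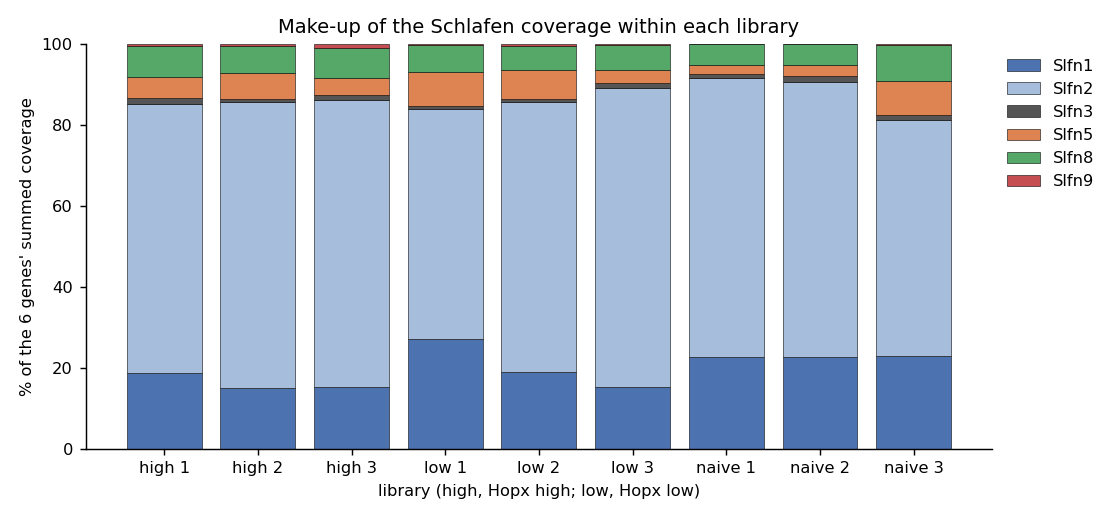
Share of each Schlafen gene in the summed coverage of the 6 genes (%), in the 3 Hopx high, 3 Hopx low and 3 naive libraries. Slfn2 makes up 56.9% to 73.8% of every bar, and naive replicates 1 and 2 have the smallest Slfn5 shares.

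The coverage of Slfn9 was 6.29%, 8.72% and 14.5% of that of Slfn8 in Hopx high, 3.58%, 6.92% and 4.74% in Hopx low and 0%, 0% and 1.54% in naive. A total of 3 assumed reads would be 25.1% and 15.8% of the Slfn8 coverage in naive replicates 1 and 2, so the ratios of 0% there are uncertain. This floor is not a limit of detection, since Slfn10-ps was listed at 1.16% of Slfn8 in naive replicate 2. The pseudogene Slfn10-ps, which shares windows with Slfn8 and Slfn9, had 25.5, 15.1 and 22.2 bases per Mb in Hopx high, against 15.0, 14.5 and 16.2 in Hopx low and 0, 0.254 and 20.2 in naive. In naive replicate 3 it stood at the Hopx level although Slfn9 did not. Slfn10-ps differed from naive by 2.13 in Hopx high (limma adjusted p = 0.217) and by 1.73 in Hopx low (limma adjusted p = 0.612) and did not pass. Slfn4, the intermediate member most like Slfn3 with 92.3% of aligned coding bases identical, had 3.11, 6.57 and 4.20 bases per Mb in Hopx high, against 6.24, 4.75 and 6.51 in Hopx low and 2.59, 2.84 and 5.71 in naive, and passed in no comparison. The rows Slfn14-ps and Slfnl1 had a mean under the filter and were not tested.

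Across the 8 samples the Pearson r on the log2 scale between members other than Slfn9 ranged from 0.54 for Slfn3 and Slfn5 to 0.92 for Slfn2 and Slfn8, as a description of samples that share depth and library make-up. With Slfn9 it ranged from 0.21 for Slfn1 to 0.62 for Slfn2, so these ranges overlapped. It was 0.89 between Slfn5 and Slfn8. Over the 6 Hopx samples alone it was 0.96 between Slfn2 and Slfn8 but 0.53 between Slfn5 and Slfn8, 0.16 between Slfn3 and Slfn5 and -0.60 between Slfn5 and Slfn9. Slfn8 and Slfn9, the closest pair by sequence, had an r of 0.56 over 8 samples and 0.14 over the 6 Hopx samples. Of 8536 genes compared, the most like Slfn5 over the 8 samples were Asb13 (r = 0.997), Tmem86b, Itgb3, Zfp420 and Supt20, and the most like Slfn8 were Bclaf1 (r = 0.996), Tgoln2, Matr3, Zcchc9 and Stag1. Srpr (r = 0.988), Serpinb6a, Plekhf2, Kat5 and Dck were nearest to Slfn1. Sfxn2 (r = 0.979), Chm, Dld, Ola1 and Psma1 were nearest to Slfn2, and Thyn1 (r = 0.983), Blzf1, Calu, Ptcd2 and Cct6a to Slfn3.

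The pathways in which the family is usually placed were read through lists of genes chosen with earlier results of these data known. Of the type I interferon response, 36 of 37 genes were tested and 0 passed in any comparison, with 2, 4 and 3 at an unadjusted p under 0.05. Their median log2 difference was -0.46 for Hopx high against Hopx low, 0.14 for Hopx high against naive and 0.66 for Hopx low against naive, beside -0.41, 0.29 and 0.70 for the 6 Schlafen genes and -0.25, 0.15 and 0.38 over all genes. The interferon-induced Ifi27l2a averaged 646 bases per Mb in Hopx high, 668 in Hopx low and 247 in naive. Without naive replicate 3, 10 of the 36 were called higher in Hopx high against naive, where 22.8% of all genes were, and 18 in Hopx low, where 24.9% were. With naive replicate 3 as the only naive sample 2 were called lower in Hopx high, against 2.71% of all genes. Of 14 genes of interferon and JAK-STAT signalling, among them receptors, kinases, transcription factors and the inhibitors Socs1 and Socs3, 0 passed, with medians of -0.11, 0.095 and 0.031 in the same comparisons. In Hopx high against naive, 1 of the 14 was called lower with median-gene scaling and with quantile normalization. The same count held without Gas5 in the totals and with naive replicates 1 and 2 separate. All these fits also called more genes in all than the main fit. Fits that leave 1 naive sample are not counted for these 14 genes. Among the 14, Stat3 averaged 362 bases per Mb in Hopx high, 380 in Hopx low and 234 in naive. Socs3, a feedback inhibitor of cytokine receptors, averaged 356 in Hopx high, 252 in Hopx low and 153 in naive. Of the genes for transfer RNA cleavage and the integrated stress response, 8 of 9 were tested and 0 passed, with medians of -0.31, 0.19 and 0.33. Without naive replicate 3, 3 of the 8 were called higher in each Hopx group against naive, beside the same 22.8% and 24.9% of all genes, and 1 lower in Hopx high, beside 2.23%. Atf4, a transcription factor of the stress response, averaged 1132 bases per Mb in Hopx high, 1572 in Hopx low and 744 in naive.

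The lists of proliferation and of T cell quiescence, the state that Slfn2 helps to hold, were also chosen with earlier results of these data known. Of 22 tested quiescence genes 5 fell in Hopx high against naive, where 0.499% of all genes were called lower. They included Txnip, an inhibitor of glucose uptake (log2 difference -3.01, limma adjusted p = 0.000505), and Klf2, a transcription factor of resting T cells (-3.43, limma adjusted p = 0.00158). None of the 22 passed between Hopx high and Hopx low or between Hopx low and naive, with 7 and 3 at an unadjusted p under 0.05 in these comparisons. Without any 1 of the Hopx high libraries, or without Hopx low replicate 1 or 2, 3 of the 22 were called lower in Hopx high against naive. Each omission of a Hopx high library also lowered the count over all genes. In the other direction, 7 of the 22 were called lower with quantile normalization and with naive replicates 1 and 2 separate. Both of these fits also called more genes in all. With no filter on low values 2 were called lower, and with a replicate block and only those groups 1, beside 0.164% and 0.0464% of all genes. With only the Hopx groups in the fit, 3 of the 22 were called lower in Hopx high against Hopx low, beside 0.148% of all genes. Of 18 proliferation genes 11 rose in Hopx high against naive, where 3.3% of all genes were called higher, among them E2f1 (3.76, limma adjusted p = 0.000215) and Mki67 (4.64, limma adjusted p = 0.000418). Without Hopx high replicate 1 there were 7, in a fit that also called fewer genes in all. With a replicate block and only those groups there were 0, beside 0.334% of all genes. No proliferation gene passed in the other comparisons, with 7 between Hopx high and Hopx low and 13 between Hopx low and naive at an unadjusted p under 0.05. With only the Hopx groups in the fit, 2 were called higher in Hopx high against Hopx low, beside 0.636% of all genes called in either direction. With naive replicates 1 and 2 separate, 8 passed between Hopx low and naive, where 1.52% of all genes were called higher. In the same comparison of Hopx high with naive the Schlafen genes other than Slfn9 lay between -0.29 and 0.35 on the log2 scale, and none passed.

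No marker gene of any cell type passed between Hopx high and Hopx low or between Hopx low and naive. The B cell gene Cd79a, the 1 marker that passed at all, was lower in Hopx high against naive (log2 difference -3.03, limma adjusted p = 0.00771). The 6 B cell genes reported summed, in bases per Mb, to 0.635 to 1.30 in Hopx high, 5.35 to 12.4 in Hopx low and 8.18 to 20.6 in naive, with Cd79a above 0 in every library and Ebf1 and Blk at 0 in 7 and 6 of 9. The 12 genes of monocytes, macrophages and dendritic cells summed to 3.03 to 7.37 in Hopx high, 11.1 to 13.9 in Hopx low and 4.30 to 5.38 in naive, with Xcr1 and Siglech at 0 in every library. These sums were lower in every Hopx high library than in every Hopx low library, the order also seen for Slfn1 and Slfn5, and their part in those values was not tested. CD4 T cell genes, 7 of 10 matched, summed to 1522 to 2993 in Hopx high, 2118 to 3321 in Hopx low and 1496 to 2430 in naive. Natural killer cell genes summed to at most 4.08 and granulocyte genes to at most 2.21. Of the CD8 T cell genes, Cd8a was at 0 in 8 of 9 libraries, but Cd8b1 was at 14.8 to 31.1 bases per Mb in Hopx high, 25.3 to 31.1 in Hopx low and 15.6 to 23.8 in naive.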

How the data were processed

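Libraries were made from rRNA-depleted total RNA for Ion Torrent sequencing, per the labels' protocols. The submitters' processing notes name bedtools and mm10, while aligner and strand setting were not given in the sources used here. The authors deposited a coverage signal for 23171 gene rows and 9 libraries. Tested on the values, each signal is the summed base coverage, with 1 base added, over the library total and times the mean total, and 100% of base counts recovered from it were whole within 1e-06. The deposited table also gives group means, a fold as the ratio of means and an unadjusted p-value, printed here where named.

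Recovered bases were set per Mb of summed coverage. Rows averaging 1 base per Mb or more were tested on log2(bases per Mb + 1) with limma 3.58.1 in R 4.3.3, all 3 groups in 1 fit with a variance trend, and adjusted by Benjamini-Hochberg at 0.05; this scale understates differences of low genes. Naive replicates 1 and 2 had a median ratio of chi-square to sampling noise of 0.971 at 100 assumed bases a read, against 6.35 to 17.8 in other pairs within groups, and were averaged. Same-numbered Hopx high and Hopx low libraries deviated together over 9025 genes (r = 0.415, 0.369 and 0.158). Naive numbers did not meet the rule of an r over 0.1 in every pair, though Hopx low and naive reached 0.489 and 0.578 in replicates 1 and 3. Naive replicate 2, labelled naive1B, was set against Hopx replicate 2 there, a pair that its label does not give (r = -0.134 for Hopx high and 0.0459 for Hopx low). Hopx high and naive replicate 3 also stood under 0.1, at 0.0769. Correlations between libraries with unlike numbers were not computed, so pairing by number is not shown, and the main fit does not use it. Floors of 3 assumed reads cover counting error only. Levels per kb use merged exons of GENCODE vM21, and promoters come from RefSeq (GRCm38.p6), matched by symbol for all 6 genes.

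The members, lists and tests were chosen with earlier results of these data known. The 6 members are always described. Of each list at most 4 called genes with the smallest p are named, or at most 2 with the highest mean, and for each member with a mean of at least 5 bases per Mb, which leaves out Slfn9, the 5 genes with the highest r. Genes next to the cluster form a further list. One listed B cell gene is not reported here and was left out of its list. Alternatives were the filter, pseudocount, scaling, variance trend, deposited values, naive averaging, samples in the fit, replicate block and omission of each replicate. Python 3.11.15 with pandas 2.3.3, Biopython 1.88 and matplotlib 3.10.9 made the tables, alignments and figures.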

Additional observations from a re-analysis of the deposited data

How the results depend on the processing

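Of 378 values of the 6 genes under the alternatives, 351 kept their direction and their side of the threshold, 20 changed direction and 7 came to pass, and none between Hopx high and Hopx low passed. The count of genes called between Hopx high and Hopx low, 0, became 69 with only those groups in the fit, 75 when a replicate block was added to that fit, and 71 without naive replicates 1 and 2 together; leaving out 1 replicate gave 0 to 57, the highest without naive replicate 3. With the replicate block in the fit of all groups it stayed 0, and no Schlafen gene passed under either block (Slfn1 adjusted p = 0.962, and 0.319 in the 2 groups). Hopx high against naive, 411, became 240 with no filter, 704 with median-gene scaling, 726 with quantile normalization, 866 with naive replicates 1 and 2 separate, 41 with a replicate block and only those groups, and 633 without naive replicates 1 and 2 together, and leaving out 1 replicate gave 157 (without Hopx high replicate 1) to 2706 (without naive replicate 3). Without Hopx high replicate 2 or 3 it was 247 or 219. Its split of 357 higher and 54 lower became 508 and 196 with median-gene scaling, 457 and 269 with quantile normalization and 408 and 130 without Gas5 in the totals. Hopx low against naive, 33, became 8 with no filter, 58 with a pseudocount of 0.1, 56 with the values as deposited, 166 with naive replicates 1 and 2 separate, 5 with only those groups, 12 with the replicate block and all groups, 134 with the block and only those groups, and 16 (without Hopx low replicate 2) to 2773 (without naive replicate 3) leaving out 1 replicate. Slfn9 passed for Hopx high against naive with scaling by the median gene (2.15, limma adjusted p = 0.0489) and with naive replicates 1 and 2 separate (2.18, limma adjusted p = 0.0282). For Slfn3, Hopx high against naive turned to -0.080 with median-gene scaling, -0.28 with quantile normalization and -0.099 without Gas5, and Hopx low against naive to -0.029 and -0.19 under the first 2 of these. Without naive replicates 1 and 2 together, Hopx high against naive turned to -0.40 for Slfn2, -0.68 for Slfn3, -1.35 for Slfn5 and -0.96 for Slfn8, and Hopx low against naive to -0.30 for Slfn1, -0.40 for Slfn3, -0.65 for Slfn5 and -0.61 for Slfn8. Leaving out 1 replicate, Hopx high against Hopx low ranged from -0.77 to 0.0042 for Slfn2, -0.63 to 0.32 for Slfn3 and -0.56 to 0.0066 for Slfn8; Hopx high against naive from -0.49 to 0.56 for Slfn1 and -0.23 to 0.77 for Slfn3; and Hopx low against naive from -0.27 to 1.05 for Slfn3. Where no value is given beside a change, the cause was not tested. Depth limits Slfn9 and Slfn3 most, since 3 assumed reads are worth 0.375 to 1.47 bases per Mb in Hopx high, 0.678 to 0.910 in Hopx low and 1.04 to 4.74 in naive.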

Other observations

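Genes next to the Schlafen cluster on chromosome 11 showed no call either. Of 9 listed, 6 were tested and 0 passed in any comparison, with 0 at an unadjusted p under 0.05. Their median log2 difference was -0.13 for Hopx high against Hopx low, 0.20 for Hopx high against naive and 0.28 for Hopx low against naive. Nle1, a factor in ribosome assembly, averaged 147 bases per Mb in Hopx high, 183 in Hopx low and 130 in naive, and Lig3, a DNA ligase, averaged 52.5 in Hopx high, 51.7 in Hopx low and 51.0 in naive. Without naive replicate 3, 2 of the 6 were called higher in Hopx high and 1 in Hopx low against naive, beside 22.8% and 24.9% of all genes.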
